A study of Mus musculus with 3 samples.

Results

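The cells described here, from a macrophage culture, are those of the LP4 library that held *Nos2* transcripts, set against those of the same library that held none. No filter on cell type was applied. *Nos2* encodes inducible nitric oxide synthase and lies at chr11:78920787-78960254 on the plus strand (GENCODE vM21, GRCm38, the build also called mm10). A barcode entered when it had more than 500 unique molecular identifiers (UMIs, the tags that count single transcripts), more than 500 genes, under 5% mitochondrial UMIs and at least 5000 UMIs. Of 5039 LP4 barcodes, 4451 passed these limits. Of these, 1339 had 2 or more *Nos2* UMIs and are called *Nos2* cells, 2803 had 0 and are called *Nos2*-negative cells, and 309 had exactly 1 and belong to neither group. Both groups were chosen by the measured *Nos2* count of each cell, so the *Nos2* values that follow describe the groups and are not a result.

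Bone marrow-derived macrophages (BMDMs) came from female C3H/HeN mice and were measured as single cells. The labels give an age of 6 to 8 weeks, and the methods one of 6 weeks. By the labels and the methods for culture, the marrow of the mice was pooled before it was grown in L929-conditioned medium and plated. The methods for single-cell sequencing instead describe the wells of a condition as cells of 3 mice that were treated apart and then combined. LP4 cells received 1 µg/mL of lipoproteins purified from *Borrelia burgdorferi* (*Bb*LP) for 4 hours, LP1 cells received the same for 1 hour, and Ctrl cells received phosphate-buffered saline. Each condition is 1 library made from the cells of 3 wells, so the spread between wells or mice was not measured, no test was run, and every interval given is a 95% interval for counting error only. Both groups come from the single LP4 library and had the same treatment, time and capture. The well or mouse of each cell is not known, so the groups may hold different shares of them.

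Inducible nitric oxide synthase makes nitric oxide from arginine, with tetrahydrobiopterin and heme as cofactors. Macrophages do not keep the enzyme in store. They transcribe *Nos2* after Toll-like receptors or interferons activate NF-κB and interferon regulatory factors, and the nitric oxide that follows is toxic to microbes and blocks respiration in the cell that makes it. The same signals turn on guanylate-binding proteins, chemokines of the interferon response, and *Acod1*, whose product makes itaconate.

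*Nos2* was nearly confined to LP4. Over the cells that passed the limits, its level was 191 counts per 1000000 UMIs (CPM) in LP4 (interval 188 to 195), 0.156 CPM in LP1 from 8 UMIs and 0.120 CPM in Ctrl from 3 UMIs. Of 3172 Ctrl cells, 1 had 2 or more *Nos2* UMIs, as did 1 of 4736 LP1 cells. In LP4 the share was 30.1% (exact binomial interval 28.7 to 31.5). A UMI can also reach a droplet as free RNA, and no cell type that lacks *Nos2* was present in number in LP4. The cells nearest to one were 20 cells with 5 or more thinned *S100a9* UMIs (*S100a9* marks neutrophils). Of these, 1 had 2 or more *Nos2* UMIs (5%, interval 0.127 to 24.9) and none had exactly 1, at a median depth of 10674 UMIs against 12128 in all LP4 cells used.

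The transcripts were unevenly shared. A *Nos2* cell held between 2 and 65 *Nos2* UMIs, with a median of 6. The tenth of LP4 cells with the most held 63.6% of all *Nos2* UMIs. At the limit of the rule stood 195 cells with exactly 2 *Nos2* UMIs, inside, and 309 with exactly 1, outside. At the limit of depth, 10 of 63 cells with 5000 to under 5500 UMIs and 3 of 41 cells with 4500 to under 5000 UMIs had 2 or more.

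The groups differed in depth, as grouping on UMIs counted at full depth allows. *Nos2* cells had a median of 13498 UMIs and *Nos2*-negative cells 11428, a log2 ratio of 0.24 (0.17 to 0.34), and their ranges overlapped almost wholly, from 5076 to 46117 against 5002 to 53047. The median number of genes was 3581 against 3239. The share of *Nos2* cells was 18.5% among cells under 8000 UMIs, 25% from 8000, 29.3% from 11000, 33.6% from 14000 and 43.3% from 18000 UMIs upward. The *Nos2* level over all cells of these bins moved much less, at 149, 197, 202, 201 and 186 CPM in the same order, so the rising share at these depths was not matched by a rising level above 8000 UMIs. The mitochondrial share was alike, with medians of 3.16% and 3.20%.

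**Figure D1:**
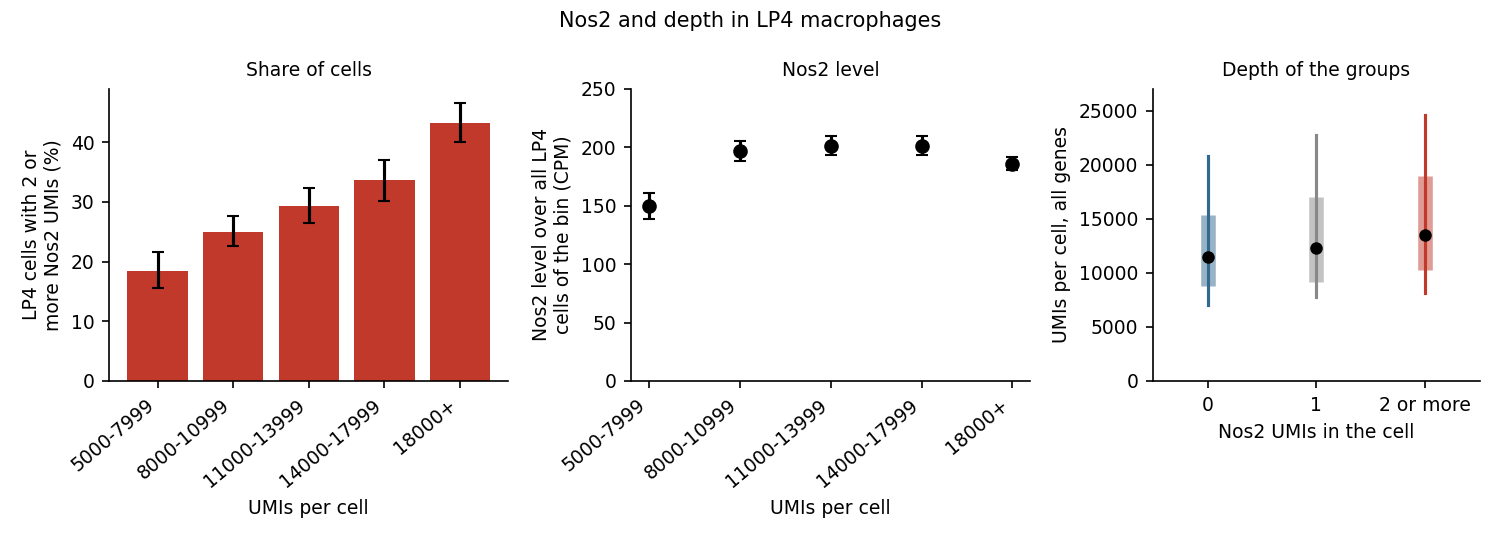
*Nos2* and depth in LP4. Left, bars give the percentage of cells with 2 or more *Nos2* UMIs in 5 bins of UMIs per cell, with exact binomial intervals; the middle panel gives the *Nos2* level (CPM) over all cells of each bin, with Poisson intervals; on the right, dots are median UMIs per cell, thick bars the quartiles and thin bars the 10th to 90th percentile. The share climbs from 18.5% to 43.3% over the bins while the level stays between 149 and 202 CPM.

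Each cell was therefore thinned to 5000 UMIs at random after the grouping. The median number of genes then came to 2035 in *Nos2* cells and 2021 in *Nos2*-negative cells. Of the 1339 *Nos2* cells, 168 (12.5%) had no *Nos2* UMI left. At 5000 UMIs a cell with 0 *Nos2* UMIs can thus still express the gene, and the negative group is a group without detected *Nos2*. Thinning evens out the number of UMIs. It does not make deep and shallow cells alike in kind, so the key ratios are also given within the 5 bins of original depth.

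Both groups carried the markers of macrophages. *Lyz2* (lysozyme) stood at 9259 CPM in *Nos2* cells and 9301 CPM in *Nos2*-negative cells. *Csf1r*, the receptor for macrophage colony-stimulating factor, stood at 444 and 452 CPM. *Cd68* stood at 619 and 596 CPM, and *Adgre1* (F4/80) at 275 and 237 CPM. All 14 genes of a macrophage identity list were above the limit for comparison, and their median log2 ratio was 0.04. Of these, 6 had a counting interval above 0 and 2 below 0. *C1qb* was the 1 gene at least 1.5-fold higher, at 39.3 against 26.2 CPM (0.59), and none was 1.5-fold lower. For all 5536 genes above that limit, 732 intervals lay above 0 and 802 below 0. Of those genes, 43 were past 1.5-fold higher and 40 lower. The summed levels of dendritic cell (6.87 and 7.92 CPM), lymphoid (1.49 and 2.35 CPM), mast cell and basophil (0.597 and 1.64 CPM) and erythroid lists (0.299 and 0.0714 CPM) were near 0, and *Cd3e*, *Hbb-bs*, *Hba-a1* and *Ly6g* had no UMI in either group. Stromal genes summed to 5.83 CPM in *Nos2* cells and 23.9 CPM in *Nos2*-negative cells. Their part in the differences between the groups was not tested.

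Summed over the thinned cells, 5536 genes had at least 20 CPM on average over the groups, with *Nos2* left out. Of these, 43 were at least 1.5-fold higher in *Nos2* cells, which is 0.777% of the genes compared, and 40 were at least 1.5-fold lower, which is 0.723%. All 83 had a counting interval that excluded 0. At these counts the limits of 20 CPM and 1.5-fold nearly fix this in advance, so it adds no support. The median log2 ratio of all 5536 genes was -0.01, and 95% of them lay between -0.38 and 0.38. The groups thus differed at few genes and by modest amounts. In the higher group stood genes of the interferon response, a few cytokines and chemokines, and genes of dividing cells. In the lower group stood neutrophil genes carried by a few cells, CXC chemokines that attract neutrophils, and *Il1a*.

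**Figure D2:**
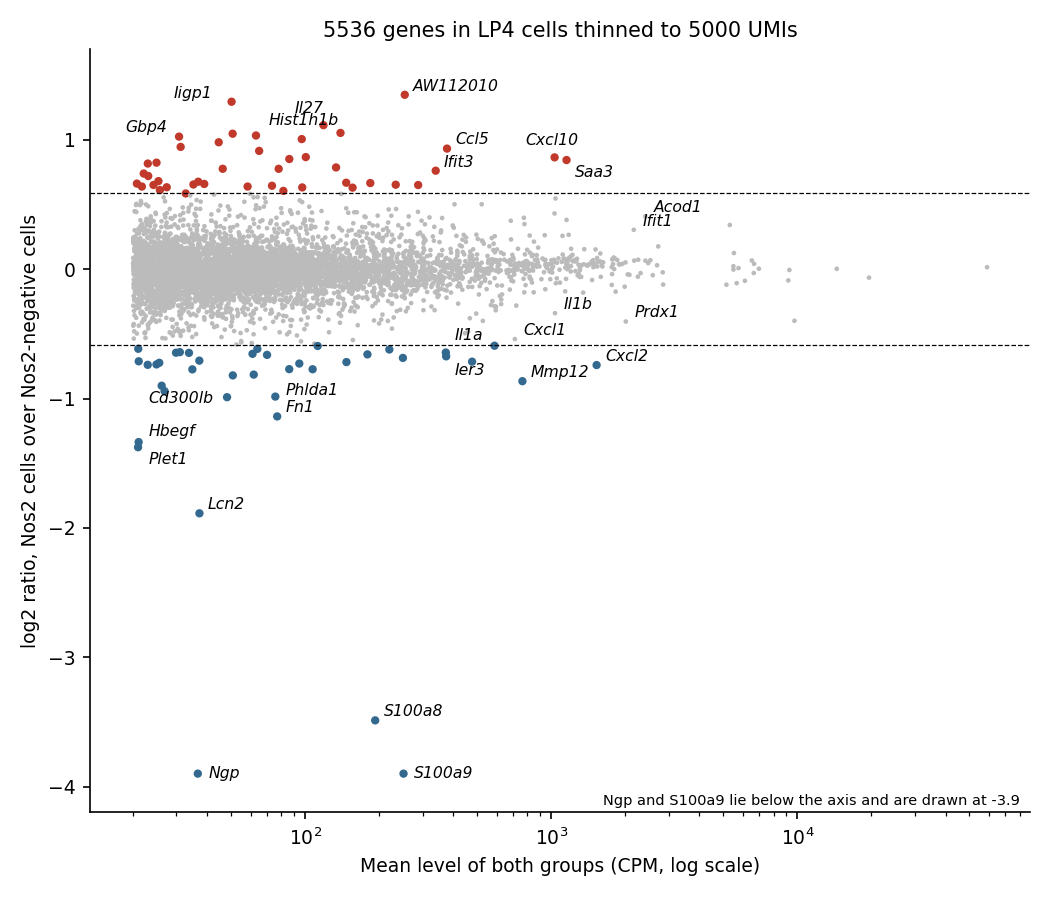
Each point is 1 of 5536 genes, with its mean level over the groups (CPM, log axis) and its log2 ratio of *Nos2* cells over *Nos2*-negative cells in LP4; dashed lines mark 1.5-fold, red points are the 43 genes above and blue points the 40 genes below. *AW112010* (1.35), *Iigp1* (1.29) and *Il27* (1.11) lie highest, and the neutrophil genes *Ngp*, *S100a9*, *S100a8* and *Lcn2* lie lowest.

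The gene with the largest ratio was *AW112010*, an interferon-inducible transcript named here after its value was seen, since its name falls outside the rule for named genes. It stood at 365 CPM in *Nos2* cells and 143 CPM in *Nos2*-negative cells (log2 ratio 1.35, 1.26 to 1.43). It was seen in 45.3% of *Nos2* cells and 24.97% of *Nos2*-negative cells.

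The GTPases that attack the vacuoles of intracellular microbes leaned higher in *Nos2* cells. Of 17 guanylate-binding proteins (GBP) and immunity-related GTPases listed, 11 were above the limit, and all 11 had a ratio and an interval above 0, with a median log2 ratio of 0.40. Over all 5536 genes compared, 2582 had a ratio above 0, 732 had an interval above 0 and 43 were past 1.5-fold higher. Past 1.5-fold were *Iigp1*, an immunity-related GTPase, and *Gbp4*. *Iigp1* (chr18:60376027-60392634) stood at 71.4 CPM against 29.1 CPM, and it was seen in 16.9% of *Nos2* cells and 8.06% of *Nos2*-negative cells. *Gbp4* stood at 41.2 CPM against 20.3 CPM (1.02, 0.78 to 1.27). *Gbp2b*, the most widely seen of the 3 named for this list, was in 70.6% and 59.7% of cells at 331 and 244 CPM (0.44, 0.37 to 0.52). At the lower end, *Irgm1* had a ratio of 0.16. Several of these genes are near copies of one another, and how reads were split between copies was not checked here.

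The genes that type I interferon induces leaned the same way by less. Of 39 listed, 35 were above the limit. Their ratio was above 0 for 34 and the interval above 0 for 29, with a median of 0.22. For all 5536 genes compared these counts were 2582 and 732, and 43 were past 1.5-fold higher. *Ifit3* and *Ifi205* were past 1.5-fold. *Ifit3* stood at 427 CPM against 252 CPM (0.76, 0.69 to 0.83). *Ifit1*, which binds foreign RNA, differed little in reach, being in 97.6% and 92.7% of cells, at 2392 and 1937 CPM (0.30, 0.28 to 0.33). The exception below 0 was *Irf9*, part of the factor that type I interferon activates, at 32.7 and 37.0 CPM, with an interval of -0.41 to 0.05. Cell by cell the groups overlapped. Thinned *Nos2* cells held between 6 and 398 UMIs of these genes with a median of 97, and *Nos2*-negative cells between 0 and 380 with a median of 78. *Ifnb1* itself, the gene of interferon beta, had 8 UMIs in *Nos2* cells and 24 in *Nos2*-negative cells (1.20 and 1.71 CPM, log2 ratio -0.52, -1.88 to 0.68), too few to tell the groups apart.

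Both groups stood above Ctrl for these genes. The type I interferon list summed to 2005 CPM in Ctrl and 2070 CPM in LP1, against 16895 CPM in *Nos2*-negative and 20766 CPM in *Nos2* cells of LP4. The GTPase list summed to 131 CPM in Ctrl, 154 CPM in LP1, 2132 CPM in *Nos2*-negative cells and 2860 CPM in *Nos2* cells. On both lists, the *Nos2*-negative LP4 cells were therefore not at the level of Ctrl. Of the 43 genes at least 1.5-fold higher in *Nos2* cells, 33 were above Ctrl in the *Nos2*-negative cells too, 28 of them by 2-fold or more. Another 6 were 2-fold or more below Ctrl. Of the 40 genes at least 1.5-fold lower in *Nos2* cells, 24 were above Ctrl in *Nos2*-negative cells, 15 of them by 2-fold or more. Another 7 were 2-fold or more below Ctrl. These counts were not made over all genes compared.

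A list of surface genes for checkpoints, costimulation and activation included 2 genes past 1.5-fold higher, *Cd69* and *Slamf7*, and none past 1.5-fold lower. Of 12 listed, 7 were above the limit, and 6 of these had an interval above 0, with a median of 0.33. Of all 5536 genes compared, 43 were past 1.5-fold higher and 732 had an interval above 0. *Cd86* stood at 87.5 and 84.2 CPM, with an interval of -0.09 to 0.20. *Cd69*, an early activation antigen, stood at 111 CPM against 61.5 CPM (0.85, 0.71 to 0.99). *Slamf7*, a receptor of the SLAM family, stood at 98.6 CPM against 57.6 CPM (0.78, 0.63 to 0.93). Its ratio shifted along the bins of original depth, from 1.45 in the shallowest to 0.13 (-0.22 to 0.47) and 0.29 (-0.02 to 0.60) in the 2 deepest. *Cd40* stood at 244 CPM against 190 CPM (0.36, 0.27 to 0.45). *Cd274*, which encodes the checkpoint ligand PD-L1, was in 97.8% and 93.2% of cells at 1210 and 1012 CPM (0.26, 0.22 to 0.30).

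**Figure D3:**
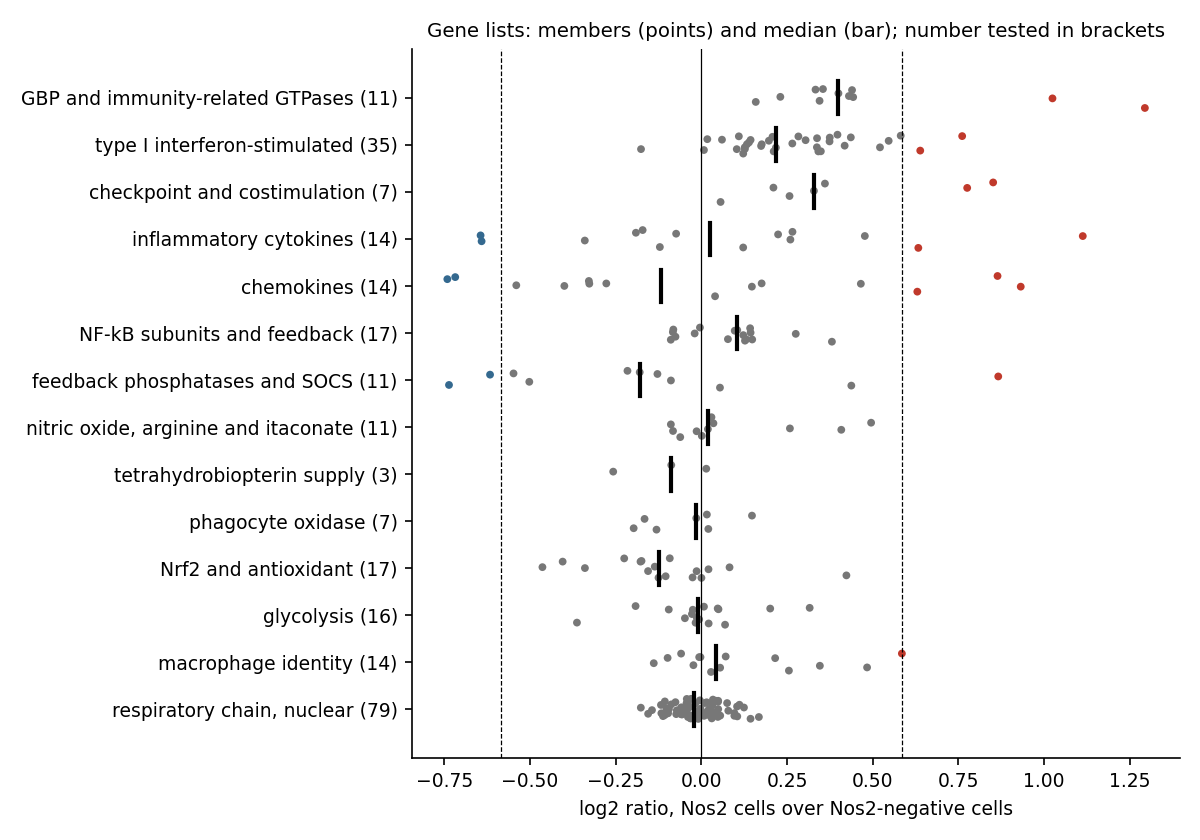
Log2 ratios of *Nos2* cells over *Nos2*-negative cells for the members of 14 gene lists that passed 20 CPM; points are genes, bars are list medians, and dashed lines mark 1.5-fold. The medians of the GBP and immunity-related GTPase (0.40), checkpoint (0.33) and type I interferon lists (0.22) lie to the right of 0, while cytokines and chemokines spread to both sides.

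Cytokines split. Of 22 listed, 14 were above the limit, 2 of them past 1.5-fold higher and 2 past 1.5-fold lower, with a median of 0.02. The same counts over all 5536 genes compared were 43 and 40. *Il27* (chr7:126589010-126594941), the alpha subunit of interleukin-27, stood at 162 CPM against 75.1 CPM (1.11, 0.99 to 1.24), in 37.6% and 20.7% of cells. *Il6* stood at 33.3 CPM against 21.5 CPM (0.63, 0.38 to 0.89), in 10.4% and 6.49% of cells. *Il1a*, interleukin-1 alpha, stood at 291 CPM against 455 CPM (-0.64, -0.72 to -0.57). *Osm*, oncostatin M, stood at 24.2 CPM against 37.8 CPM (-0.64, -0.90 to -0.38). *Tnf*, at 267 and 281 CPM, had an interval that spans 0 (-0.16 to 0.01). *Il12b* fell under the limit, with 1.05 and 0.856 CPM.

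Chemokines went both ways, in the CC and in the CXC family. Of 20 listed, 14 were above the limit, 6 of them with an interval above 0 and 7 below 0, and the median was -0.12. Among all 5536 genes compared, 732 had an interval above 0 and 802 below 0, and 43 were past 1.5-fold higher and 40 lower. *Ccl5*, *Cxcl10* and *Ccl7* were past 1.5-fold higher, and *Cxcl2* and *Cxcl5* past 1.5-fold lower. *Cxcl10* and *Ccl5* attract T cells. *Cxcl10* (chr5:92346638-92348889) stood at 1332 CPM in *Nos2* cells and 732 CPM in *Nos2*-negative cells (0.86, 0.82 to 0.91), in 77.1% and 54.8% of cells. *Ccl5* stood at 495 CPM against 259 CPM (0.93, 0.86 to 1.00), in 45.6% and 27.4% of cells. *Cxcl1*, *Cxcl2* and *Cxcl5* attract neutrophils. *Cxcl2* (chr5:90903871-90905938) stood at 1144 CPM against 1913 CPM (-0.74, -0.78 to -0.70), *Cxcl5* at 111 against 183 CPM (-0.72, -0.84 to -0.60), and *Cxcl1* at 580 against 843 CPM (-0.54, -0.59 to -0.49). Among the CC chemokines, *Ccl2* had a ratio of 0.47 (0.38 to 0.55) and *Ccl4* one of 0.18, whereas *Ccl6* (-0.33, -0.47 to -0.19), *Ccl9* (-0.28, -0.33 to -0.22) and *Ccl24* (-0.33, -0.58 to -0.08) lay below 0. The reach of *Cxcl2* and *Cxcl5* hardly differed. *Cxcl2* was in 74.5% of *Nos2* cells and 77.8% of *Nos2*-negative cells, and *Cxcl5* in 10.7% and 11.9%. The difference for *Cxcl2* and *Cxcl5* was thus mostly in UMIs per cell that had them, whereas *Cxcl10* and *Ccl5* also differed in the share of cells. The ratios of *Cxcl1*, *Cxcl2* and *Cxcl5* were smaller in size in the deepest cells, as given below. Against Ctrl, where *Cxcl2* stood at 4016 CPM and *Cxcl10* at 15.4 CPM, both LP4 groups were lower in *Cxcl2* and higher in *Cxcl10*.

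Among regulators of signalling, *Socs1*, which restrains interferon signalling, was higher and *Dusp5*, a phosphatase of MAP kinases, lower. *Socs1* stood at 130 CPM against 71.3 CPM (0.87, 0.73 to 1.00), and *Dusp5* at 18.7 CPM against 31.1 CPM (-0.74, -1.04 to -0.45). *Zfp36l2*, which promotes mRNA decay, was also past 1.5-fold lower (-0.62, -0.80 to -0.44). *Dusp1*, at 176 and 169 CPM, spanned 0 (-0.05 to 0.16). Of 17 NF-κB subunits and feedback genes above the limit, none was past 1.5-fold. Their median was 0.10, with 7 intervals above 0 and 1 below 0. The counts over all 5536 genes compared were 43 past 1.5-fold higher and 40 lower, and 732 intervals above 0 and 802 below 0. *Tnip3*, which holds NF-κB back, had the largest ratio of the 17 at 0.38 (1305 and 1002 CPM). *Tlr2*, the receptor for lipoproteins, stood at 359 CPM against 308 CPM (0.22, 0.15 to 0.29), and *Myd88*, its adaptor, at 67.2 and 61.4 CPM with an interval of -0.04 to 0.30. *Irf1* stood at 221 and 199 CPM (0.15, 0.06 to 0.24).

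The stretches before the starts of genes that differ were searched for letters that transcription factors of this response bind. The search covered the 250 bases before each start listed by RefSeq on GRCm38.p6, on both strands, and took 28 of the 43 higher and 29 of the 40 lower genes, those with an entry. The letters GAAANNGAA (N is any base), part of the element that interferon regulatory factors and the interferon-activated complex bind, were before 9 of the 28 higher genes (32.1%) and 0 of the 29 lower genes. They were before 8.58% of the 4454 genes compared that had an entry, and before 8.18% of all 27025 genes in the table. The NF-κB motif was before 14.3% of the higher, 13.8% of the lower and 10.8% of the compared genes. The AP-1 letters TGANTCA were before 17.9%, 24.1% and 6.20%, and the letters TTCNNNGAA of STAT factors before 10.7%, 3.45% and 6.67%, in the same order. The letters TGACGTCA of CREB and ATF factors were before 3.57%, 3.45% and 3.21%. The first letters of GAAANNGAA can be the last of TTCNNNGAA, and each motif was counted on its own. A match is a description of letters and not of binding.

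Printed here are 4 higher genes with GAAANNGAA before them and 2 lower genes without it, chosen after their values were seen. Each line gives the 250 bases before the start, 5′ to 3′ on the strand of the gene, with GAAANNGAA and NF-κB matches on either strand in capitals. *Cxcl10* has 1 GAAANNGAA match beside NF-κB matches, *Socs1* 2 overlapping ones, *Ifit3* 3 on the opposite strand and *Saa3* 1. *Cxcl2* has NF-κB matches alone, and *Il1a* has neither. Their positions are chr5:92348890-92349139 on the minus strand for *Cxcl10*, chr16:10785537-10785786 minus for *Socs1*, chr19:34583279-34583528 plus for *Ifit3*, chr7:46715677-46715926 minus for *Saa3*, chr5:90903649-90903898 plus for *Cxcl2* and chr2:129309973-129310222 minus for *Il1a*. GENCODE places the starts of *Cxcl2* and *Saa3* slightly further upstream, inside the last bases printed.
Cxcl10: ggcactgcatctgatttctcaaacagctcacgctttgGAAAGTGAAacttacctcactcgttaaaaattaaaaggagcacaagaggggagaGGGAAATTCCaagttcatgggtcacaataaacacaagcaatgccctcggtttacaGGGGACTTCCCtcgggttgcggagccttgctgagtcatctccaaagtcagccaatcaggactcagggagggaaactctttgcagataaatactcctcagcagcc
Socs1: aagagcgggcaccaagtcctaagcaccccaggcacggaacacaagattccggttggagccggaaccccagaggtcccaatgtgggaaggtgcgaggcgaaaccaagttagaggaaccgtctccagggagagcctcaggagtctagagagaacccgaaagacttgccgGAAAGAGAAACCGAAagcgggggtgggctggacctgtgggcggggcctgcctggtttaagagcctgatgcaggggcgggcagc
Ifit3: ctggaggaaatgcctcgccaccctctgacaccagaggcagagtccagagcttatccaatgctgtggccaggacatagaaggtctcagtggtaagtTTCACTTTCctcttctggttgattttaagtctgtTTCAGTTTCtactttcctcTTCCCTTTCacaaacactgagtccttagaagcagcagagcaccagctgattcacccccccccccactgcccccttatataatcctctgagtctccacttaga
Saa3: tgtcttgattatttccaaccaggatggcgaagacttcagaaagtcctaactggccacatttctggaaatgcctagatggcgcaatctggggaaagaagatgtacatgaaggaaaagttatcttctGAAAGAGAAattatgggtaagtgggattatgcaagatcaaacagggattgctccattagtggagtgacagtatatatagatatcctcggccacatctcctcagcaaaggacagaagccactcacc
Cxcl2: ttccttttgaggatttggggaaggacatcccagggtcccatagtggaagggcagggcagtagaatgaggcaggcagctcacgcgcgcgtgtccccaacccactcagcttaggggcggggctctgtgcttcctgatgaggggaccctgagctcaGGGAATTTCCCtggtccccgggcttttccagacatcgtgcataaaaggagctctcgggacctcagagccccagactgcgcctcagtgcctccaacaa
Il1a: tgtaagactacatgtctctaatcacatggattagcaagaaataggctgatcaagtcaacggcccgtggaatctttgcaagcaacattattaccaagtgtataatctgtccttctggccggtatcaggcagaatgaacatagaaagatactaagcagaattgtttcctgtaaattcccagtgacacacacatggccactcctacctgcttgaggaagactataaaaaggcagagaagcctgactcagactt

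The genes around nitric oxide synthesis that were above the limit differed by less than 1.5-fold. Of 20 genes of arginine, nitric oxide and itaconate listed, 11 were above the limit. Of these, 3 had an interval above 0 and 1 below 0, and the median was 0.02. Among all 5536 genes compared, 43 were past 1.5-fold higher and 40 lower, and 732 had an interval above 0 and 802 below 0. *Slc7a2*, which imports arginine, stood at 750 and 735 CPM (0.03, -0.02 to 0.08). Its ratio was 0.66 (0.51 to 0.80) in the shallowest bin of original depth and -0.13 (-0.24 to -0.02) in the deepest. *Ass1*, which remakes arginine from citrulline, stood at 24.9 and 17.7 CPM (0.50, 0.20 to 0.78), in 10.0% and 6.74% of cells. *Arg2* stood at 22.4 and 23.8 CPM (-0.09, -0.38 to 0.19). *Arg1* had 1 UMI in *Nos2* cells and 12 in *Nos2*-negative cells (-2.52, -7.94 to 0.24). *Gch1*, which starts the synthesis of tetrahydrobiopterin, stood at 263 and 280 CPM (-0.09, -0.17 to -0.01). None of the 3 tetrahydrobiopterin genes above the limit was past 1.5-fold.

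*Acod1* (chr14:103046977-103056573) was near universal. It was in 98.7% of *Nos2* cells with a median of 13 UMIs, and in 92.4% of *Nos2*-negative cells with a median of 9 UMIs. Its level was 2748 and 2070.5 CPM (0.41, 0.38 to 0.43), against 343 CPM in Ctrl. Genes of the phagocyte oxidase, the other source of toxic radicals in macrophages, stayed close, with a median ratio of -0.01 over 7 genes and *Cybb* at 1549 and 1528 CPM (0.02, -0.01 to 0.05).

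Antioxidant genes under Nrf2 leaned lower. Of 17 above the limit, 9 had an interval below 0 and 2 above 0, with a median of -0.13 and none past 1.5-fold. Over all genes compared, 802 of 5536 had an interval below 0. *Prdx1*, a peroxiredoxin, stood at 1728 CPM in *Nos2* cells and 2288 CPM in *Nos2*-negative cells (-0.40, -0.44 to -0.37). *Gclc* and *Gclm*, the subunits of the enzyme that starts glutathione synthesis, had ratios of -0.46 (-0.61 to -0.32) and -0.34 (-0.46 to -0.22). *Keap1*, which holds Nrf2 back, ran the other way at 47.6 and 35.5 CPM (0.42, 0.22 to 0.63). *Sod2*, a mitochondrial superoxide dismutase that NF-κB also induces, stood at 948 and 895 CPM (0.08, 0.04 to 0.13).

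Nuclear genes of the respiratory chain stood at similar levels in both groups. The ratios of the 79 above the limit ran from -0.18 to 0.17, with a median of -0.02. None was past 1.5-fold, and 1 had an interval above 0 and 5 below 0. Over all 5536 genes compared, 43 were past 1.5-fold higher and 40 lower, and 732 had an interval above 0 and 802 below 0. The 13 genes of the mitochondrial genome had a median of -0.03. Glycolysis genes had a median of -0.01 over 16, with *Pfkfb3* at the top (0.32, 0.23 to 0.40) and *Slc2a1*, a glucose importer, at the bottom (-0.36, -0.56 to -0.17). Ribosomal protein genes had a median of 0.04 over 82.

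*Fpr3* and *Fpr2*, formyl peptide receptors that sense bacterial and host peptides, were past 1.5-fold higher. In their list of formyl peptide and metabolite receptors, 9 of 14 genes were above the limit, with a median of 0.01. Past 1.5-fold higher were 3 of the 9 and lower none, and 4 had an interval above 0 and 1 below 0. *Hcar2* was lowest at -0.36. Of all 5536 genes compared, 43 were past 1.5-fold higher and 40 lower. An interval above 0 was found for 732 of them and one below 0 for 802. *Fpr3* stood at 84.99 CPM against 45.1 CPM (0.91, 0.75 to 1.08) and *Fpr2* at 58.4 CPM against 34.1 CPM (0.78, 0.58 to 0.97). In Ctrl they stood at 0.631 and 1.45 CPM. *Ms4a4c* stood at 68.4 against 33.1 CPM (1.05, 0.86 to 1.24) and *Cfb*, complement factor B, at 41.1 against 21.3 CPM (0.95, 0.70 to 1.19). *Saa3*, an acute-phase protein whose upstream stretch is among those printed and which was named after its value was seen, stood at 1482 CPM against 826 CPM (0.84, 0.80 to 0.88), in 72.2% and 50.3% of cells.

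Other genes past 1.5-fold lower in *Nos2* cells came from no common list among those used here. Of the 7 named here, *Fn1* alone is in such a list, that of alternative activation, where it was the 1 of 6 members above the limit past 1.5-fold. The paper's supplement, however, names *Fn1*, *Mmp12* and *Itgax* together among the genes upregulated in a cluster of its cells. The list of that cluster also holds *Ifit1*, *Cd274* and *Gbp2b*, which had ratios above 0 here (0.30, 0.26 and 0.44). *Hbegf*, a ligand of the epidermal growth factor receptor, stood at 11.9 CPM against 30.2 CPM (-1.34, -1.70 to -0.99). *Fn1*, fibronectin, stood at 48.1 CPM against 106 CPM (-1.14, -1.32 to -0.96). *Cd300lb*, an activating receptor, stood at 32.3 CPM against 64.1 CPM (-0.99, -1.21 to -0.77). *Phlda1* stood at 50.8 CPM against 100.5 CPM (-0.99, -1.16 to -0.81) and *Plet1* at 11.7 CPM against 30.2 CPM (-1.38, -1.74 to -1.03). *Mmp12*, macrophage elastase, stood at 541 CPM against 986 CPM (-0.87, -0.92 to -0.81), and *Itgax*, which encodes CD11c, at 36.7 CPM against 64.9 CPM (-0.82, -1.03 to -0.62). The last 2 were named after their values were seen.

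The largest negative ratios came from a handful of cells. *Ngp* had 1 UMI in *Nos2* cells against 73.1 CPM in *Nos2*-negative cells (-8.94, -14.24 to -6.45). *S100a9* stood at 4.33 CPM against 498 CPM, *S100a8* at 31.5 against 354 CPM, and *Lcn2* at 15.8 against 58.6 CPM. The 20 cells with 5 or more thinned *S100a9* UMIs, of which 1 was a *Nos2* cell and 19 were *Nos2*-negative, held 99.5% of the *S100a9*, 99.2% of the *Ngp*, 89.8% of the *S100a8* and 67.4% of the *Lcn2* UMIs of LP4. *Mpo* and *Elane*, granule genes of immature neutrophils, had 128 and 110 UMIs in *Nos2*-negative cells against 0 and 1 in *Nos2* cells. Without the 20 cells, which were chosen on *S100a9* itself after the data were seen, the log2 ratio was -0.04 for *S100a8* (-0.32 to 0.24) and -0.03 for *Lcn2* (-0.40 to 0.34), and the genes past 1.5-fold numbered 44 higher and 35 lower. *S100a9*, then at 1.20 and 1.94 CPM, kept a ratio of -0.70 (-2.05 to 0.48), and *Ngp*, at 0.149 and 0.431 CPM, one of -1.53 (-7.05 to 1.52), so that all 4 intervals spanned 0.

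Genes of dividing cells stood among the higher ones but did not hold their direction. *Hist1h2ap* and *Hist1h1b*, histones made in S phase, stood at 84.8 against 41.5 CPM and 129 against 64.4 CPM, and *Top2a*, a topoisomerase of dividing cells, at 59.1 against 30.0 CPM. They were in 8.07%, 8.22% and 10.8% of *Nos2* cells. Cells with 10 or more thinned UMIs of the S phase and mitosis lists made up 12.2% of *Nos2* cells (10.5 to 14.05) and 7.60% of *Nos2*-negative cells (6.64 to 8.64). These marked cells had a median of 17350.5 UMIs against 11786 in the others, and 40.3% of them were *Nos2* cells. Within the bins of depth, each of the 3 genes had a ratio above 0 in 2 of 5 bins. Without the marked cells, the ratio was -0.41 for *Hist1h2ap*, 0.14 for *Hist1h1b* and 0.35 for *Top2a*. *Top2a* is itself in the mitosis list used for the marking, so its ratio without these cells is partly set by that choice. The part of depth in the dividing cells' share was not tested further.

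Most genes past 1.5-fold kept their direction within bins of depth. Of the 43 higher genes, 34 had the same direction in all 5 bins, as had 28 of the 40 lower genes. The bins hold the same cells in which these genes were chosen, so the agreement is partly built in. It was not counted over all genes compared. *Cxcl10* ranged from 0.80 to 1.03 over the bins, *Ifit3* from 0.68 to 1.00, *Ccl5* from 0.75 to 1.37, *Il27* from 0.86 to 1.64, *Iigp1* from 0.80 to 1.78 and *Socs1* from 0.59 to 1.11, all with intervals above 0 in 5 of 5 bins. *Acod1* lay between 0.44 and 0.54 in every bin, above its pooled ratio of 0.41.

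Some of the lower genes shifted along the bins. *Cxcl2* went from -0.90 in the shallowest bin to -0.22 in the deepest, and *Il1a* from -0.88 to -0.08, where its interval spanned 0. *Cxcl1* went from -0.69 to -0.02 (-0.15 to 0.10 in the deepest bin). *Phlda1* went from -1.20 to -0.18 (-0.58 to 0.21 in the deepest bin). *Plet1* went from -4.33 in the shallowest bin to -0.36 (-1.22 to 0.45) and -0.70 (-1.33 to -0.10) in the 2 deepest. Between the same bins, *Fn1* went from -3.78 to -0.77 and -1.27. *Hbegf* went from -4.43 to -0.62 (-1.31 to 0.04) and -1.24. *Cxcl5* lay between -0.83 and -0.65 in the 3 shallower bins and at 0.01 and 0.02 in the 2 deeper ones, with intervals that spanned 0. *Cd300lb* did not shift in this way, at -0.94 in the shallowest bin and -1.20 in the deepest. *Dusp5*, *Osm* and *Zfp36l2* were below 0 in every bin, with intervals that excluded 0 in 2, 1 and 3 of 5 bins. With the bins weighted equally, their ratios were -0.52, -0.50 and -0.53, short of 1.5-fold. *Il1b*, at 914 and 1158 CPM overall (-0.34, -0.38 to -0.30), was below 0 in the 3 shallower bins and above 0 in the 2 deeper ones, over a range of -0.57 to 0.20, so no direction is given for it. *Ptgs2*, with an overall ratio of -0.32, was above 0 in 3 of 5 bins. *Prdx1* ran the opposite way, from -0.32 to -0.80. A difference between bins was not tested, since the cells of a bin are not replicates.

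**Figure D4:**
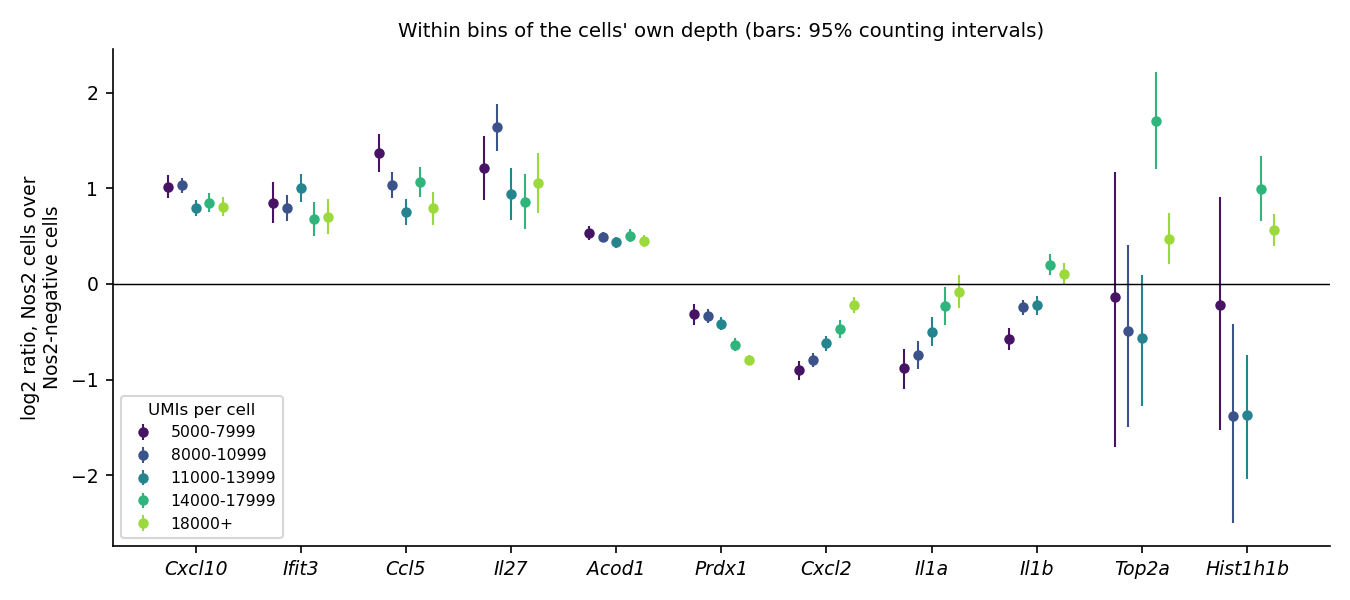
Log2 ratios of *Nos2* cells over *Nos2*-negative cells for 11 genes, computed within 5 bins of the cells' original UMIs and drawn from the shallowest to the deepest, with counting intervals. *Cxcl10*, *Ifit3*, *Ccl5*, *Il27* and *Acod1* are above 0 in every bin, *Cxcl2* approaches 0 in deep cells, *Prdx1* moves away from it, and *Il1b*, *Top2a* and *Hist1h1b* change sign.

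The levels were also followed over the number of *Nos2* UMIs. *Nos2* UMIs were counted at full depth, so cells with many were deeper, with medians of 12275 UMIs in the 309 cells with 1, 12248.5 in the 524 with 2 to 4, 13806 in the 403 with 5 to 9, 14433 in the 293 with 10 to 19, and 16963 in the 119 with 20 or more. *Cxcl10* stood at 732 CPM in cells with 0 *Nos2* UMIs, 1091 with 1, 1260 with 2 to 4, 1224 with 5 to 9, 1420 with 10 to 19 and 1795 with 20 or more. *Acod1* stood at 2070.5, 2172, 2647, 2747, 2800 and 3064 CPM in the same classes. *Cxcl2* dropped at the first step, from 1913 to 1151 CPM, and lay between 943 and 1256 CPM after it. *Prdx1* went from 2288 and 1889.97 CPM in cells with 0 and 1 to 1397 CPM in cells with 20 or more. The cells with 1 *Nos2* UMI lay between the groups for *Cxcl10*, *Ccl5* and *Il27*, and close to the *Nos2* cells for *Cxcl2*. *Gch1* stayed between 249 and 280 CPM throughout.

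**Figure D5:**
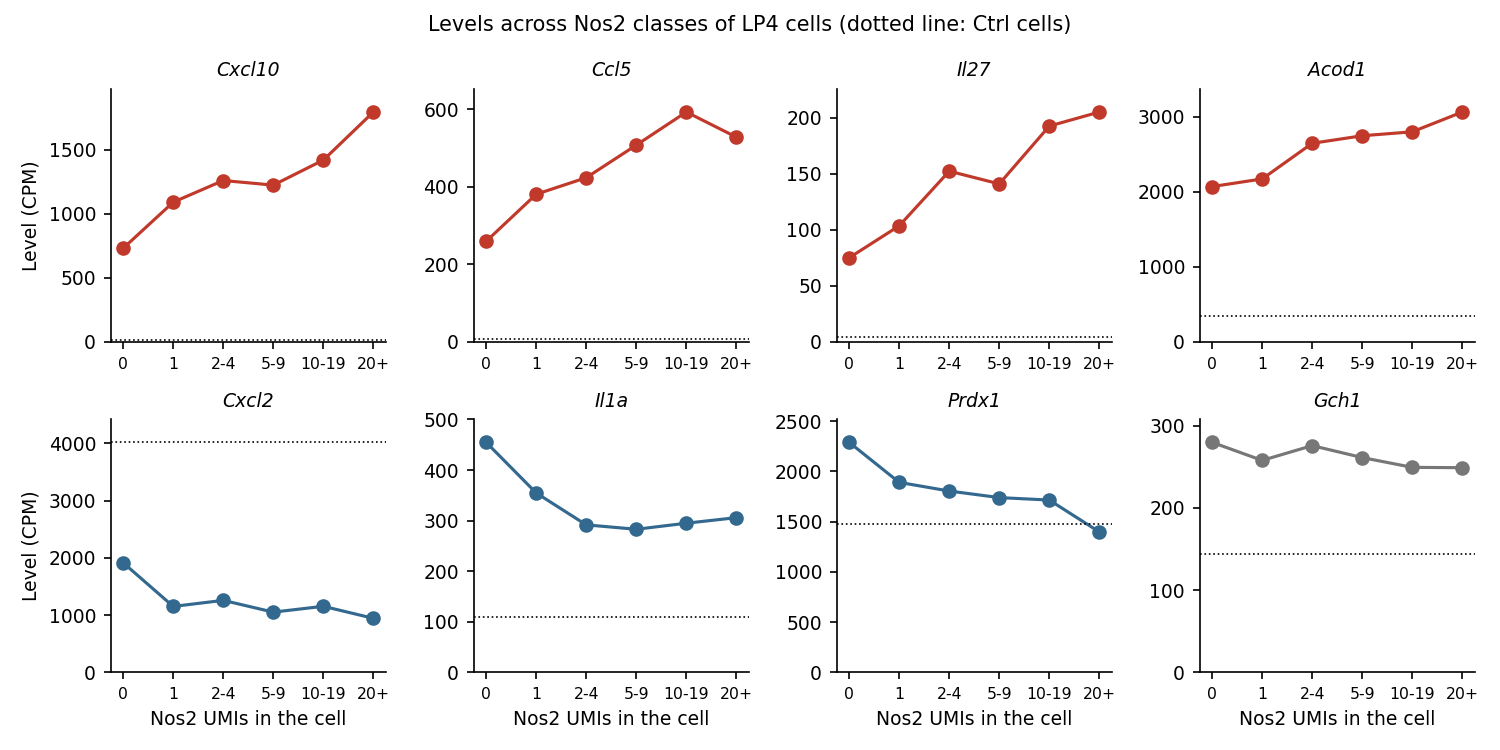
Levels (CPM, after thinning to 5000 UMIs) of 8 genes in LP4 cells with 0, 1, 2 to 4, 5 to 9, 10 to 19 and 20 or more *Nos2* UMIs; the dotted line is the level in Ctrl cells. *Cxcl10* goes from 732 to 1795 CPM over the classes, *Prdx1* from 2288 to 1397 CPM, *Cxcl2* drops between 0 and 1 *Nos2* UMI, and *Gch1* stays near 260 CPM.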

How the data were processed

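Reads were aligned and counted by the authors with Cell Ranger (version 7.1.0 per the submitters' processing notes) against mm10. The deposited values are raw UMI counts of each gene in each barcode called as a cell. The 3 matrices hold 35749924 UMIs in 6123 barcodes (Ctrl), 52773906 in 5119 (LP1) and 64787139 in 5039 (LP4). The cells past the limits number 12359 of 16281 barcodes, with a median of 7043.5 (Ctrl), 9652.5 (LP1) and 12128 (LP4) UMIs. Among them, 5 barcode sequences were shared by Ctrl and LP1, 4 by Ctrl and LP4 and 3 by LP1 and LP4.

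The groups of cells, gene lists and tests were chosen with earlier results of these data known. Cells were grouped by *Nos2* UMIs at full depth, then thinned without replacement to 5000 UMIs with a seed of 20, which left 6695000 UMIs in *Nos2* cells and 14015000 in *Nos2*-negative cells. UMIs were summed per group and scaled to CPM. Intervals at 95% were exact Poisson for CPM, exact conditional binomial for log2 ratios and exact binomial for shares. They treat UMIs as independent and so cover counting error only, and for genes carried by few cells the spread between cells is wider. Genes needed 20 CPM on average over the groups. Genes named were the 10 highest and the 10 lowest by ratio, apart from unnamed genes and those of mitochondria and ribosomal proteins, up to 3 at either end of each of 34 lists, and a fixed set of genes from the nitric oxide, cytokine and interferon responses. Markers quoted come from the lists. Not every gene chosen in this way is reported here.

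Doublets were not removed. Scrublet (scanpy 1.11.5) called 1 of 4670 LP4 cells at its own threshold, so its calls were not used, and the 5% with the highest scores were left out as an alternative. These were 8.07% of *Nos2* cells and 4.14% of *Nos2*-negative cells. Other alternatives were other thinning depths, seeds, groupings, depth bins, mitochondrial limits, expression minimums, folds and scalings, and leaving out cells marked for other types, the cell cycle or shared barcodes. The code was tested on simulated data. Promoters were read from RefSeq on GRCm38.p6. TMM factors came from edgeR 4.0.16 under R 4.3.3, and all else ran in Python 3.11.15 with scipy 1.17.1, numpy 2.4.6, matplotlib 3.10.9 and pandas 2.3.3. Ctrl and LP1 served only for levels set beside LP4. The paper's other experiments were not analysed here.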

Additional observations from a re-analysis of the deposited data

Results flagged for a closer look

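2 sets of LP4 barcodes that the comparisons did not use held *Nos2* above the level in Ctrl, where 1 of 3172 cells had 2 or more *Nos2* UMIs. Of 247 LP4 barcodes with at least 5000 UMIs and 5% or more mitochondrial UMIs, 61 had 2 or more, which is 24.7% (exact binomial interval 19.4 to 30.6) at a median of 11764 UMIs. Of 219 LP4 cells under 5000 UMIs that passed the other limits, 13 had 2 or more, which is 5.94% (3.20 to 9.94) at a median of 3724 UMIs.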

How the results depend on the processing

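No paired analysis was possible because each condition is 1 library and both groups come from LP4. The 43 higher and 40 lower genes became 69 and 65 with *Nos2* cells of 5 or more UMIs, 83 and 80 under 3% mitochondrial UMIs (566 and 1135 cells), 25 and 23 at a minimum of 50 CPM, 145 and 132 at 5 CPM, and 8 and 7 at 2-fold; thinned to 2000 UMIs, 63 were lower. With another seed, 31 of the 43 and 34 of the 40 were called again, with no thinning 28 and 25, and thinned to 10000 UMIs 32 and 21. The sign of all 83 held in these settings, but without cells marked for other types or the cell cycle 40 of the 43 kept it, without cell cycle-marked cells 41, at 2000 UMIs 42, and without neutrophil-marked cells 39 of the 40. The share of *Nos2* cells was 34.0% at 10000 or more UMIs, 19.2% when counted after thinning, 37.0% for 1 or more UMIs and 18.3% for 5 or more. The log2 ratio of depth was 0.078 when cells were grouped after thinning. Without cells marked for other types or the cell cycle, *Hist1h2ap* turned to -0.47, and without the cell cycle-marked cells alone, an alternative chosen after seeing the data, to -0.41; the cause was not tested. *Lcn2* turned to 0.079 without the cells with 5 or more neutrophil-list UMIs, also chosen after seeing the data. That list holds *Lcn2* itself, so this value is partly set by the choice of cells. The other alternatives for these counts, the share and the depth ratio, 43 values, kept within 1.5 times of the count or within the interval. Of values for named genes, 2685 stayed within their counting interval and 362 did not. The median of the GTPase list ranged from 0.35 to 0.46, that of the type I interferon list from 0.21 to 0.29 and that of the chemokines from -0.14 to 0.07, which spans 0. Genes under 20 CPM, *Ifnb1* and *Il12b* among them, were too shallow to compare.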

Other observations

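A few genes outside the lists and the naming rule were looked up after their values were seen. *Gm42418*, a highly abundant transcript that overlaps ribosomal RNA, stood at 8393 CPM in *Nos2* cells and 11068 CPM in *Nos2*-negative cells (log2 ratio -0.40, -0.41 to -0.39), and it was in every cell of both groups. Its part in the other ratios was not tested.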
